A study of Mus musculus with 2 samples.

Results

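The 10 genes described here encode heat shock proteins and chaperones, and all 10 were found by symbol among the 55415 genes counted in single mouse liver cells. They are Hspa1a, Hspa1b, Dnajb1, Hsph1, Hspb1 and Hsp90aa1, taken as the inducible cytosolic group, Hspa8 as the constitutive cytosolic member, Hspa5 in the endoplasmic reticulum, and Hspd1 and Hspe1 in the mitochondrion. The study holds 1 library of biliary epithelial cells of genotype Sox9cKO and 1 of genotype Sox9con, both from mouse liver, and the labels do not give the Cre driver, the age, the sex or how many animals each library holds. Sox9 is a transcription factor of bile duct cells, and by the title of the series the Sox9cKO cells lack it. Fixed whole cells were barcoded by repeated splitting and pooling, and reverse transcription was primed with random hexamers and oligo(dT). With 1 library per genotype no test between genotypes is possible, and every interval below is a 95% interval for counting error only.

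Chaperones hold unfolded or partly folded proteins and release them for folding, assembly or degradation. Under heat or other protein damage, heat shock factor 1 switches on the genes of the inducible cytosolic chaperones, whereas the unfolded protein response raises those of the endoplasmic reticulum through ATF6, XBP1 and ATF4. Hspa8 is made in most cells at most times, and HSP60 and HSP10, the products of Hspd1 and Hspe1, form the folding chamber of the mitochondrial matrix. Freshly dissociated tissue often carries a mixed response of heat shock and immediate early genes.

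Of 2740 and 3622 deposited cells, 2710 Sox9cKO and 3505 Sox9con cells passed the filters. They fell into 9 clusters, made without the 10 genes, and 6 of these (numbered 0 to 5) were pooled as the biliary fraction. It held 2600 Sox9cKO cells with 14359876 UMIs (unique molecular identifiers, each standing for 1 counted transcript) and a median of 5125 UMIs per cell. The Sox9con cells of the fraction numbered 3369, with 12162859 UMIs and a median of 3226. All 14 biliary markers were detected in the fraction of each library, but none of the 6 clusters had a biliary marker among its 10 leading genes. Clusters 0 and 1 had a mesothelial marker there (Upk3b, Msln), and cluster 4 was led by plasma protein genes such as Hp, Serpina1b and Fga. The clusters are therefore compared by number, and the name of the fraction rests on the markers detected in it and on the labels. Levels are given as CPM, the UMIs of a gene divided by all UMIs of the same set of cells and scaled to a fixed total. Hepatocyte markers (10 of 10 detected) summed to 1168 CPM in the Sox9cKO fraction and 937 in the Sox9con fraction. The biliary markers summed to 10579 CPM in Sox9cKO (wells 9364 to 12110) and 16543 in Sox9con (wells 12437 to 20427), without overlap. Macrophage markers (6 of 10 detected in Sox9cKO, 8 in Sox9con) summed to 123 and 74.7 CPM, also without overlap of the wells. Markers of neurons or glia (5 of 6 detected in each) summed to 196 and 42.8 CPM, and those of endothelial cells (10 of 10) to 30.2 and 41.8. Their part in the results was not tested. Sox9 itself stood at 122 CPM (116 to 128) in the library labelled Sox9cKO and 146 (139 to 153) in the library labelled Sox9con, with overlapping wells, and whether these UMIs lie outside a deleted part is not known here. The 2 libraries shared 0 cell barcodes, which was fixed by the design because their cells filled different first-round barcoding wells.

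Promoter sequence was at hand for 8 of the 10 genes, from RefSeq on GRCm38.p6, while the counts were made on GRCm39. Each window held the 250 bases before a transcription start, and Dnajb1, Hsph1 and Hspd1 had 2 starts each. Heat shock factor 1 binds inverted repeats of the unit GAA, and 2 forms were searched on both strands: 3 units (GAANNTTCNNGAA or TTCNNGAANNTTC), held by 0.466% of 32817 promoter windows of this length, and 2 units (GAANNTTC or TTCNNGAA), held by 12.8%. Every match of the 3-unit form also contains the 2-unit form. The ER stress response element was searched as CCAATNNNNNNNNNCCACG, which contains the CCAAT box and occurs in 0.113% of windows. A match is a description of letters, not evidence that a factor binds there.

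The Hspa1a window, chr17:34972157-34972406 on the minus strand, is shown whole because cells are grouped below by this gene. Its capitals mark the 2-unit heat shock element, which begins 104 bases before the start.
Hspa1a: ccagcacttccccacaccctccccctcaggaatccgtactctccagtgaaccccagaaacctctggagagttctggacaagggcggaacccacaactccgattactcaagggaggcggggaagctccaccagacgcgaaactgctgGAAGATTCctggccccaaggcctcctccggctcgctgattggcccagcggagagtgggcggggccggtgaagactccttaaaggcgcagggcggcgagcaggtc
The window of the neighbouring Hspa1b has the same element at the same distance and matches that of Hspa1a at 247 of 250 bases.

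Short stretches of 30 bases show the elements of Hsph1 (chr5:149636351-149636380, minus strand), Hspb1 (chr5:135887801-135887830, plus strand), the region between Hspd1 and Hspe1 read in the direction of Hspe1 (chr1:55088053-55088082, plus strand) and Hspa5 (chr2:34772019-34772048, plus strand). The capitals mark heat shock elements, 2-unit in Hsph1 and Hspb1 and overlapping 3-unit in Hspe1, and the ER stress response element in Hspa5.
Hsph1: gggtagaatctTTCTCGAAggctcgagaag
Hspb1: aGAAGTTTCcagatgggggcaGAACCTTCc
Hspe1: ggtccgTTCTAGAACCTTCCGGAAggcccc
Hspa5: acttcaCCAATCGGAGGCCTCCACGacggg
Among the 8 genes, the 3-unit form was found only in the shared stretch of Hspd1 and Hspe1, and the ER stress response element only in Hspa5. In Hspd1 it lay in the window of the second start. The searched heat shock forms were not in either Dnajb1 window. The first of these windows overlaps an exon of Tecr and the second an exon of Dnajb1 itself. Windows of Hsph1, Hspa5, Hspd1 and Hspe1 also overlap annotated exons.

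Read against exonic length, Hsp90aa1 was the most abundant of the 10 transcripts, and the order below it put the ER chaperone ahead of all other members. Hsp90aa1, the stress-responsive form of HSP90, reached 217 CPM per kilobase in the Sox9cKO fraction and 235 in the Sox9con fraction. Hspa5, which encodes the ER chaperone BiP, followed with 141 and 149.5 CPM per kilobase. The constitutive Hspa8 came next at 51.3 and 67.2. The remaining members lay between 18.2 (Hsph1) and 49.0 (Hspd1) in the Sox9cKO fraction and between 11.3 (Hsph1) and 58.1 (Hspb1) in the Sox9con fraction, on the same scale.

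Between the libraries, the 10 genes together differed little. Summed over all members, the fraction held 2248 CPM (2224 to 2273) in Sox9cKO and 2418 (2391 to 2446) in Sox9con. The median log2 ratio of Sox9cKO over Sox9con was -0.20 over the 10 members and -0.07 over the 9323 genes with at least 200 UMIs. Of the members 2 were higher and 8 lower in Sox9cKO (3 and 7 with TMM factors, 4 and 6 with DESeq2 size factors), and 0 of 10 were at least 2-fold apart, against 2.19% of tested genes at least 2-fold higher and 1.78% at least 2-fold lower. Of the tested genes, 54.6% had a log2 ratio below -0.03, the value of Hspa1b. Cells of each library filled first-round barcoding wells of their own, 5 for Sox9cKO (A11, A12, B1, B2, B3) and 4 for Sox9con (D9, D10, D11, D12). These wells are parts of 1 library and not biological replicates, so well and library cannot be told apart, and they are used here as a technical spread over 20 pairs of 1 well from each. Of the 10 members, 1 was higher in Sox9cKO in every pair (Hsph1), against 7.64% of tested genes, and 1 was lower in every pair (Hspa8), against 8.37%.

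**Figure D1:**
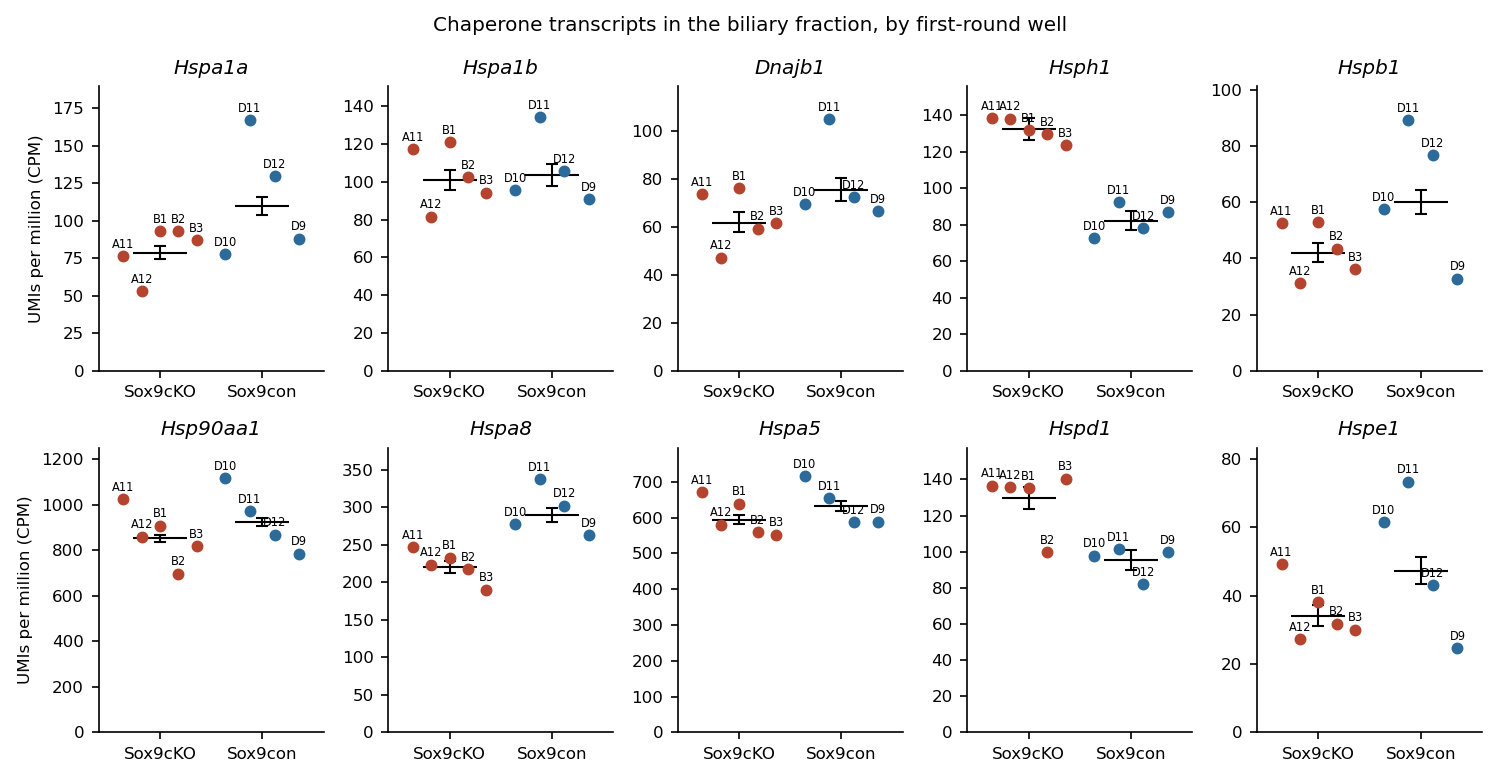
Level of each chaperone gene in the biliary fraction (vertical axis, CPM from 0) for every first-round well of the Sox9cKO (red) and Sox9con (blue) library; the black bar is the library's pooled level with its 95% Poisson interval. The wells of the 2 libraries are apart for Hsph1 and Hspa8 and overlap for the other 8 genes.

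Among the inducible cytosolic genes, Hsph1 differed from the rest. It encodes HSP110, which exchanges the nucleotide of HSP70 and so resets it. Its level was 138 CPM in well A11, 138 in A12, 132 in B1, 129.8 in B2 and 124 in B3, against 87.1 in D9, 72.7 in D10, 92.5 in D11 and 78.1 in D12. All Sox9cKO wells were thus above all Sox9con wells, and the pooled log2 ratio was 0.69 (0.58 to 0.80). It was also higher in Sox9cKO within each of 8 sublibraries, which hold cells of both genotypes and divide the same cells again. The share of tested genes for which this holds was not counted. Of its 1903 Sox9cKO UMIs, 1560 lay in cluster 4, which held 896 Sox9cKO and 6 Sox9con cells.

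Hspa1a and Hspa1b encode almost the same inducible HSP70, and of the 50-base stretches of Hspa1a transcripts 58.8% also occur in Hspa1b. How reads matching both were assigned is not given in the sources used here, so their separate values are uncertain. Hspa1a stood at 76.6, 53.0, 92.8, 93.0 and 86.9 CPM in A11, A12, B1, B2 and B3, and at 88.1, 77.9, 167 and 129.7 CPM in D9 to D12. The Sox9con wells D11 and D12 were above all Sox9cKO wells and D9 and D10 lay within their range, with a log2 ratio of -0.48 (-0.59 to -0.36) that became -0.31 without D11 and -0.32 without A12. Hspa1b held 101 CPM in Sox9cKO and 103 in Sox9con, a log2 ratio of -0.03 (-0.14 to 0.08) that was 0.05 with TMM and 0.06 with DESeq2 factors. The sum of both genes was 179.6 CPM (173 to 187) against 213 (205 to 221), a log2 ratio of -0.25 that was -0.11 without D11 and -0.12 without A12.

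Dnajb1, the HSP40 that delivers clients to HSP70, stood at 61.9 CPM (57.9 to 66.1) in Sox9cKO and 75.6 (70.8 to 80.6) in Sox9con, with a log2 ratio of -0.29 that was -0.16 without D11 and -0.17 without A12. Hspb1, which encodes a small heat shock protein, had a log2 ratio of -0.52 (-0.68 to -0.36). Its Sox9con wells ran from 32.8 CPM in D9 to 89.2 in D11 and enclosed most of the Sox9cKO range of 31.2 to 52.9, and leaving out D9 moved the ratio to -0.80. Hsp90aa1 held 854 CPM (839 to 869) in Sox9cKO and 924 (907 to 941) in Sox9con. Its log2 ratio of -0.11 was -0.01 without D10, -0.05 without B2 and -0.21 without D9, so the size of this small difference rests on single wells. For the 6 inducible genes summed the log2 ratio was -0.09 (-0.12 to -0.06), and it turned to 0.01 with DESeq2 size factors. Most of this sum is Hsp90aa1, with 12257 of its 18229 UMIs in Sox9cKO and 11237 of 16474 in Sox9con.

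Hspa8, the constitutive HSP70 that also drives chaperone-mediated autophagy and clathrin uncoating, was lower in Sox9cKO. It stood at 247 CPM in A11, 223 in A12, 233 in B1, 217 in B2 and 190.0 in B3, against 263 in D9, 277 in D10, 338 in D11 and 302 in D12. The highest Sox9cKO well lay below the lowest Sox9con well, and the log2 ratio was -0.39 (-0.46 to -0.32). Hspa8 was higher in Sox9cKO in 0 of the 8 sublibraries, but so was Hspe1, whose wells overlap. Of its 50-base stretches, 38.6% occur in transcripts of other genes, mostly Gm15459, so its absolute level is uncertain.

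Hspa5 was nearly level between the libraries. Its Sox9cKO wells held 671, 580.2, 639, 559 and 552 CPM (A11 to B3) and its Sox9con wells 589, 716, 655 and 587 (D9 to D12). These ranges overlap, and the log2 ratio of -0.09 (-0.13 to -0.04) was -0.02 without D10 and -0.13 without D9. It turned to 0.01 with DESeq2 size factors, which shift the median of all tested genes from -0.07 to 0.03. No 50-base stretch of Hspa5 is found in another gene's transcripts.

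The 2 mitochondrial chaperonin genes, which share a bidirectional promoter, went opposite ways. Hspd1 held 137, 136, 135, 99.7 and 140.4 CPM in A11, A12, B1, B2 and B3, and 99.9, 97.8, 101 and 82.1 in D9 to D12. Only B2 among the Sox9cKO wells lay within the Sox9con range, so that 18 of 20 pairs were higher in Sox9cKO, and the log2 ratio was 0.44 (0.34 to 0.55). Hspe1 held 34.0 CPM (31.0 to 37.1) in Sox9cKO and 47.1 (43.3 to 51.1) in Sox9con. Its log2 ratio of -0.47 (-0.65 to -0.29) was -0.29 without D11, -0.31 without D10 and -0.76 without D9, and its Sox9con wells spread from 24.6 to 73.3 CPM. The genes overlap on opposite strands in the annotation, and the strand used in counting is not given in the sources used here.

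The Sox9con wells D11 and D9 stood at the ends of this spread. Of these 4 wells D11 had the fewest UMIs per cell (median 2391) and D9 the most (median 4344). The highest of the 4 Sox9con wells was D11 for 8 of the 10 members, against 30.2% of tested genes, and the lowest was D9 for 6 members, against 37.4% of tested genes. Hsp90aa1 and Hspa5 were instead highest in D10. The part of depth in these differences was not tested.

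The inducible genes were not spread evenly over cells. To compare cells at equal depth, each cell of the fraction was thinned at random to 2000 UMIs, which kept 2461 Sox9cKO and 2803 Sox9con cells and left out 139 and 566. A Hspa1a UMI was found in 7.11% (6.13 to 8.20) of the Sox9cKO cells and 7.96% (6.98 to 9.02) of the Sox9con cells, and in 12.5% and 11.6% of the unthinned cells. Adding Hspa1a, Hspa1b, Dnajb1 and Hsph1, 75.4% and 71.9% of thinned cells had no UMI of the 4 genes, whereas 43 Sox9cKO cells (1.75%) and 42 Sox9con cells (1.5%) had 10 or more and held 44.3% and 43.9% of all their UMIs. The cell with the most had 43 such UMIs in Sox9cKO and 56 in Sox9con. Cells with 3 or more made up 4.96% of Sox9cKO and 4.53% of Sox9con cells, and this share ran from 4.01% to 6.14% over the Sox9cKO wells and from 4.20% to 5.35% over the Sox9con wells. The ranges of the wells overlap, so a difference between the libraries in the share of such cells was not detectable at this depth.

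**Figure D2:**
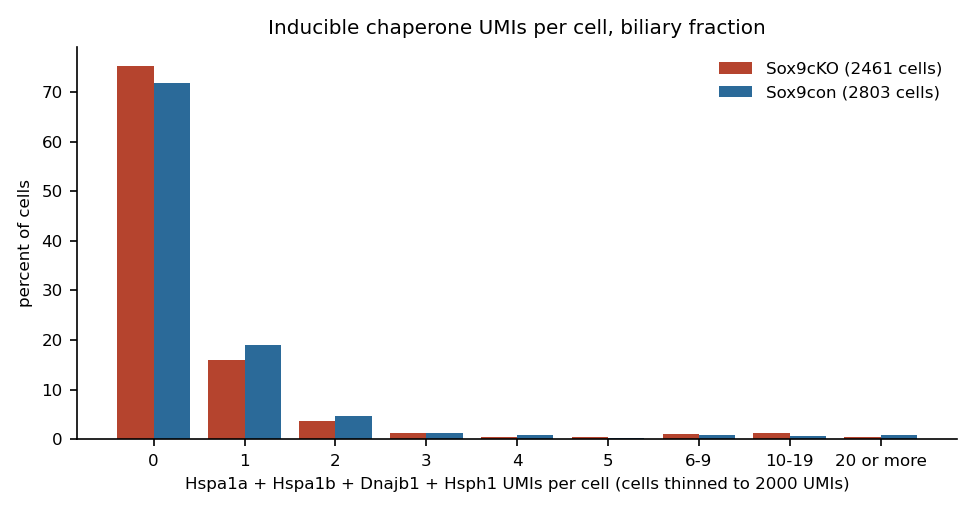
Percent of biliary fraction cells (vertical axis) by the number of Hspa1a, Hspa1b, Dnajb1 and Hsph1 UMIs in the cell (horizontal axis, binned above 5), for cells thinned to 2000 UMIs of the Sox9cKO (red) and Sox9con (blue) library. Most cells hold none (75.4% and 71.9%), and a small tail reaches 10 or more in 1.75% and 1.5% of cells.

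This unevenness differed between the members. The variance of a gene's UMIs over its mean across thinned cells had a median of 1.11 in Sox9cKO and 1.12 in Sox9con over all tested genes. Hspa1a, which is detected in few cells, reached 3.74 and 7.22, Hsph1 5.66 and 4.37, and Hspa1b 3.19 and 5.03. Hsp90aa1 gave 4.44 and 3.22, although it was found in 67.8% and 71.8% of cells. Dnajb1 gave 2.39 and 2.22. Hspb1 gave 1.81 and 1.77, close to the 1.66 and 1.64 of Hspa8, and with each gene's top cell left out Hspb1 was below Hspa8 in Sox9cKO (1.56 against 1.6). Both lay above the median gene, whereas Hspe1 (1.11 and 1.17) lay near it, as did Hspd1 in Sox9con (1.12, against 1.27 in Sox9cKO). Hspa5 gave 2.39 in Sox9cKO, but 1.39 without a single cell that held 56 Hspa5 UMIs among its 2000, and 1.45 in Sox9con.

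Cells with a Hspa1a UMI carried the other inducible chaperones with it. These were 175 Sox9cKO and 223 Sox9con cells, of median depth 5204 and 3321 UMIs, close to the 5295 and 3595 of the cells without one. Their median mitochondrial shares were 6.34% and 5.40%, against 5.96% and 5.67%. Genes with at least 2-fold more UMIs in the cells with Hspa1a made up 3.0% of 4299 genes in Sox9cKO and 1.79% of 4856 in Sox9con, and 45 genes passed in both libraries.

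Hsph1 ranked 1 of 4299 genes in Sox9cKO, with 213 UMIs per 100 cells with Hspa1a against 10.8 per 100 cells without, a log2 ratio of 4.29 (4.06 to 4.53). In Sox9con it ranked 2, with 104.5 against 9.07 per 100 cells and a log2 ratio of 3.52 (3.26 to 3.79). Hspa1b ranked 2 and 1, with log2 ratios of 4.04 and 4.10, and the part of reads shared by the near-identical copies in this was not tested. Dnajb1 ranked 4 in both, at 3.32 (2.98 to 3.68) and 2.66 (2.38 to 2.95). Hspb1 ranked 6 and 7 with 3.0 and 2.13, and Hsp90aa1 ranked 10 and 18 with 2.18 and 1.57. All these log2 ratios were above 0 in each of the 5 Sox9cKO and 4 Sox9con wells.

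The intervals of Hspa8 and Hspe1 overlapped that of Hsp90aa1 in Sox9cKO. Hspa8 was 2.05 (1.85 to 2.26) log2 units higher in cells with Hspa1a in Sox9cKO and 1.39 (1.21 to 1.57) in Sox9con. Hspe1 was 2.10 and 1.54 higher, and Hspd1 1.14 and 0.71. The mitochondrial HSP70 gene Hspa9 was not higher, with log2 ratios of -0.35 (-0.74 to 0.02) and -0.54 (-0.90 to -0.21). Hspa5 was only 0.29 higher in both libraries (0.10 to 0.48 in Sox9cKO, 0.12 to 0.45 in Sox9con), and its ER partner Hsp90b1, which encodes GRP94, 0.59 and 0.23. Hsf1, the gene of heat shock factor 1 itself, gave -0.44 (-1.37 to 0.36) and -0.11 (-0.87 to 0.57).

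Immediate early and stress transcription factors stood among the same leading genes. Fos, a subunit of AP-1, ranked 3 in both libraries with log2 ratios of 3.56 and 2.82. Atf3 ranked 5 in both with 3.05 and 2.47, Egr1 ranked 7 and 6 with 2.69 and 2.35, and Jun ranked 8 and 9 with 2.47 and 1.90.

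The Hsph1 difference between the libraries was larger in the cells with a Hspa1a UMI. These splits were chosen after the data were seen. Among cells with a Hspa1a UMI, Hsph1 stood between 154 and 277 UMIs per 100 cells over the Sox9cKO wells and between 74.5 and 148 over the Sox9con wells, without overlap, and the log2 ratio of the libraries was 1.02 (0.78 to 1.27). Among cells without one, the log2 ratio was 0.26 (-0.01 to 0.52) and the wells overlapped. Hspd1 was higher in Sox9cKO in both sets of cells, by 0.86 (0.40 to 1.34) with and 0.44 (0.27 to 0.62) without a Hspa1a UMI. For Hspa8 the order was the reverse, since its log2 ratio was -0.55 (-0.68 to -0.42) in cells without Hspa1a and 0.11 (-0.13 to 0.36) in cells with it. Dnajb1, Hspb1 and Hspe1 likewise were lower in Sox9cKO in the cells without Hspa1a, at -0.66, -0.72 and -0.63, while in cells with it their intervals included 0. In the cells without Hspa1a the wells were apart for Hspa8 and Dnajb1 (0 of 20 pairs higher in Sox9cKO) and for Hspd1 (20 of 20). They overlapped for Hspb1 (3 of 20) and Hspe1 (4 of 20). The share of all genes whose wells were apart was not counted for either set of cells. Hsp90aa1 gave -0.22 (-0.29 to -0.15) without and 0.39 (0.27 to 0.52) with a Hspa1a UMI. Cells with Hspa1a lay mostly in different clusters in the 2 libraries, 66.3% of them in cluster 4 in Sox9cKO and 66.8% in cluster 2 in Sox9con, so cluster and library cannot be told apart here.

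**Figure D3:**
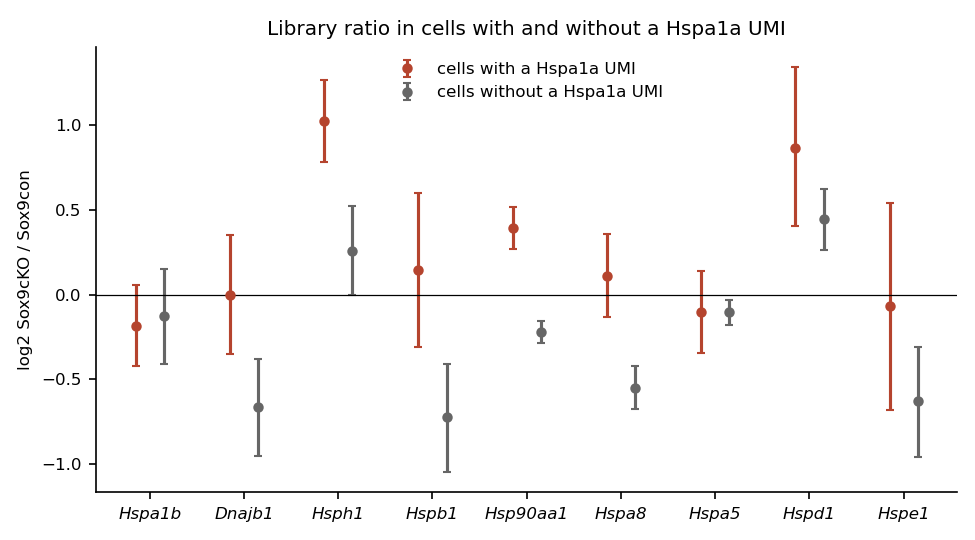
Log2 ratio of Sox9cKO over Sox9con (vertical axis) for 9 chaperone genes in cells with (red) and without (grey) a Hspa1a UMI, at 2000 UMIs per cell; bars are 95% intervals for counting error. Hsph1 is 1.02 in cells with and 0.26 in cells without Hspa1a, and Hspa8 is 0.11 and -0.55.

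A further clustering used all variable genes, the 10 members included. Its biliary cluster with the highest Hspa1a level was picked and is called the stress gene cluster here. The 10 leading genes were Dnah12, Mmp25, Hspa1a, Scin, Ryr1, Aldh3b3, Fos, Kcnh4, Gm46401 and Fam71a. This cluster took 232 Sox9cKO cells (8.92%, 7.85 to 10.1) and 335 Sox9con cells (9.94%, 8.95 to 11.0), between 7.87% and 10.8% of each well. Since the members helped to form it and Hspa1a was used to pick it, their levels in it are a description only. The cluster held 77.3% and 72.8% of all Hspa1a UMIs, 66.3% and 48.8% of those of Hsph1, and 29.5% and 20.9% of those of Hspa8, but 10.3% and 10.6% of those of Hspa5, close to its 8.59% and 8.51% of all UMIs. Without its cells, an alternative chosen after the data were seen, the log2 ratio of Hsph1 was 0.09 (-0.08 to 0.26) and that of Hspd1 0.37 (0.25 to 0.49).

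Among the 6 biliary clusters, made without these genes, the inducible sum, most of it Hsp90aa1, was higher in clusters 2 and 4 than in the other 4. Cluster 2 held 2733 CPM in its 1011 Sox9con cells and 1906 in its 89 Sox9cKO cells, and cluster 4, with 896 Sox9cKO and 6 Sox9con cells, held 2101 in Sox9cKO. Clusters 0, 1, 3 and 5 lay between 482 and 980 CPM in either library. Leaving out the 6 Sox9con cells of cluster 4, Hspa1a ran over these biliary clusters from 9.0 CPM (3.3 to 19.5) in cluster 5 of Sox9cKO to 330 (311 to 349) in cluster 2 of Sox9con. Fos, Atf3 and Egr1 were also high there, with 856, 1199 and 1408 CPM in cluster 2 of Sox9con against 92.7, 91.8 and 174 in cluster 1 of the same library.

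The spread over the biliary clusters was smaller for Hspa8 and Hspd1 than for Hspa1a. Leaving out the same 6 cells, Hspa8 was highest in cluster 2 of Sox9con at 503 CPM and lowest in cluster 5 of Sox9cKO at 91.2, and Hspd1 ran from 75.8 CPM in cluster 0 of Sox9con to 168 in cluster 4 of Sox9cKO. Cluster 0 of Sox9cKO showed 1101 CPM of Hspa5, but 1 cell of well A12 held 190 of these UMIs, and without that cell the value was 508. The other biliary clusters ran from 339.9 CPM of Hspa5 in cluster 5 of Sox9con to 862 in cluster 2 of either library.

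Clusters 0, 1, 3 and 5 had at least 100 cells of each library, so the genotypes could be set side by side within them. Hspa8 had a log2 ratio of -0.23 (-0.61 to 0.13), -0.38 (-0.60 to -0.16), -0.56 (-0.81 to -0.31) and -0.54 (-1.0 to -0.09) in these clusters. Hspd1 was higher in Sox9cKO in all 4, at 0.28, 0.30, 0.28 and 0.27, with each interval including 0. Hspb1 was lower in clusters 0, 1 and 3, at -1.17, -1.34 and -2.05, and had 0 UMIs in cluster 5 of Sox9cKO against 9 in Sox9con. Hsph1 had no common direction, at 1.16 (0.54 to 1.75) in cluster 0, -0.26 (-0.70 to 0.20) in cluster 1, 0.02 in cluster 3 and 0.16 in cluster 5. In the same order, Hspa1a gave 0.08, 0.42, -0.14 and -2.27 (-3.86 to -1.11), with the other intervals including 0. Hspa1b gave 0.84 (0.13 to 1.49), 1.21 (0.55 to 1.95), 0.30 and -0.50, and Dnajb1 0.34, -0.29, -0.89 and -1.68. The inducible sum gave 0.19 (0.02 to 0.36), -0.03, -0.25 and -0.71 (-0.90 to -0.52). Hspa5 gave 0.83, -0.06, -0.02 and 0.35, the first value including the cell with 190 UMIs. Cluster 2, left out here, had 89 Sox9cKO cells. There Hsph1 was lower in Sox9cKO, at 86.2 against 198 CPM and a log2 ratio of -1.20 (-1.82 to -0.65). Hspa8 gave -1.09 (-1.45 to -0.75) in cluster 2 and Hspd1 -0.48 (-1.07 to 0.05). In cluster 4, Hsph1 stood at 277 CPM in the Sox9cKO cells.

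**Figure D4:**
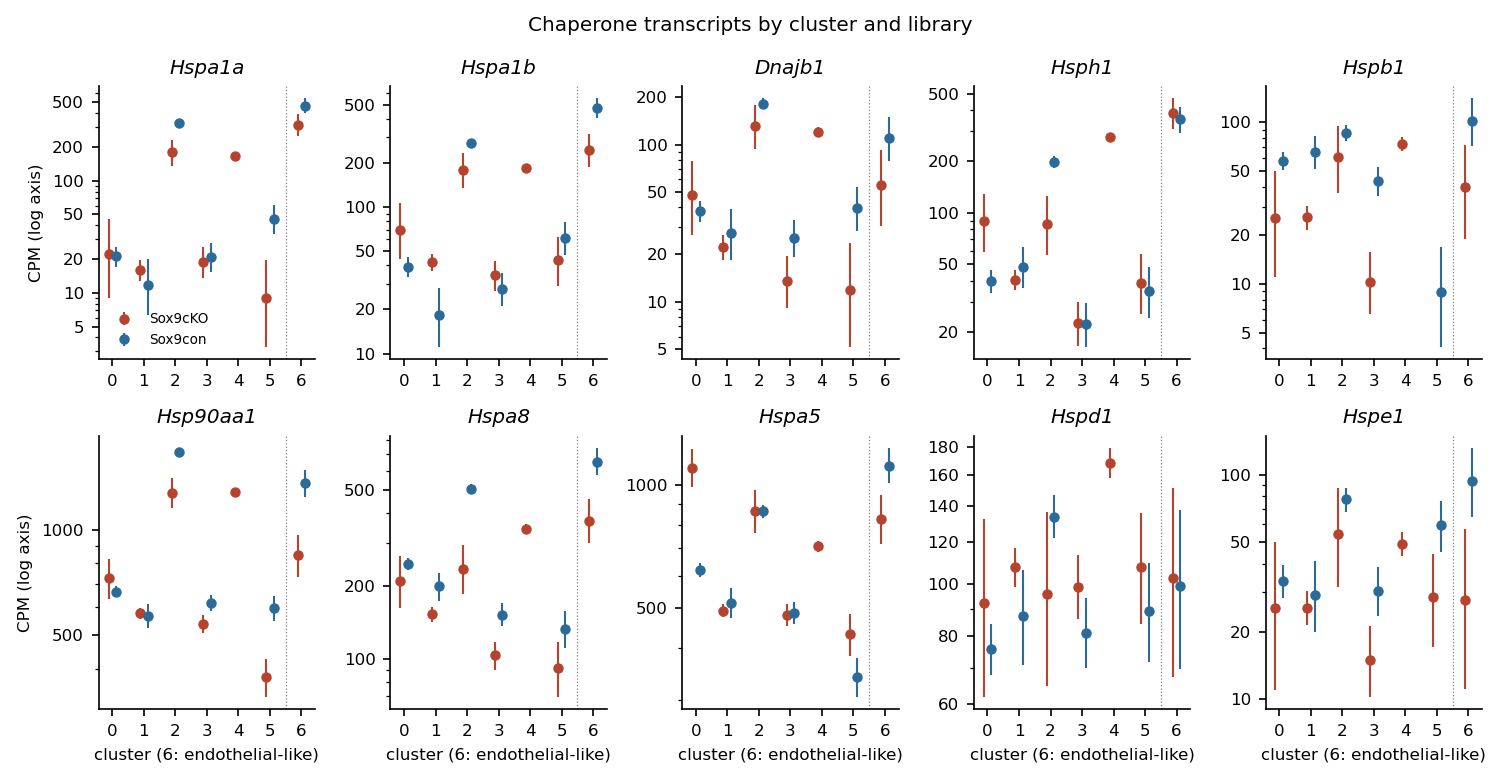
Level of each chaperone gene (vertical axis, CPM on a log axis) in clusters 0 to 6 with at least 50 cells of a library, for Sox9cKO (red) and Sox9con (blue), with 95% Poisson intervals; points with 0 UMIs are not drawn and cluster 6 is endothelial-like. Hspa1a reaches 330 CPM in cluster 2 of Sox9con and is at most 45.6 in clusters 0, 1, 3 and 5.

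The endothelial-like cells, 83 of Sox9cKO and 116 of Sox9con, held more inducible HSP70 than the biliary fraction. Hspa1a reached 313 CPM (248 to 390.0) and 466 (398 to 541), log2 differences of 1.99 and 2.09 from the fraction. Hspa1b was 1.28 and 2.20 higher and Hsph1 1.54 and 2.10. These 3 members were at least 2-fold higher in both libraries, as were 17.3% of 4505 genes tested. Dnajb1 gave -0.16 (-1.04 to 0.60) in Sox9cKO and 0.54 (0.05 to 1.0) in Sox9con, and Hspb1 gave -0.08 (-1.15 to 0.81) and 0.77 (0.25 to 1.24). At 2000 UMIs a Hspa1a UMI was found in 18 of 54 Sox9cKO (33.3%) and 33 of 72 Sox9con endothelial-like cells (45.8%), against 7.11% and 7.96% in the biliary fraction. Hspa5 reached 824 and 1113 CPM there, log2 differences of 0.47 and 0.82. The constitutive Hspa8 was also higher, by 0.76 (0.44 to 1.05) and 1.18 (0.98 to 1.37). Hsp90aa1 gave -0.02 and 0.56, Hspd1 -0.33 and 0.06, and Hspe1 -0.29 and 0.99. The biliary value is an average over clusters, and cluster 2 held 179 CPM of Hspa1a in Sox9cKO and 330 in Sox9con.

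Cells high in Hspa5 were few in both libraries. At 2000 UMIs, 51 Sox9cKO cells (2.07%, 1.55 to 2.72) and 73 Sox9con cells (2.60%, 2.05 to 3.26) held 5 or more Hspa5 UMIs, a limit chosen after the data were seen, and 9 and 13 of these had a Hspa1a UMI, against 175 of all 2461 and 223 of all 2803 cells. Genes whose 95% interval lay above 0 in these cells in both libraries made up 1.97% of 4161 genes. Abundant genes have narrower intervals and reach this limit more easily. Of the ER chaperone and unfolded protein response list, 4 of the 17 genes measured passed, namely Hsp90b1 (1.24 and 0.95 log2 units), Calr (0.78 and 0.53), Canx (0.46 and 0.67) and Atf4 (0.56 and 0.37). Of the other 9 members, 8 were measured and 3 passed, Dnajb1 (1.05 and 1.27), Hsp90aa1 (0.42 and 0.57) and Hspa8 (0.64 and 0.58). Of the cells high in Hspa5, 30 of the 51 in Sox9cKO lay in cluster 4 and 43 of the 73 in Sox9con in cluster 2. Both clusters were high in the inducible sum, so cluster and Hspa5 level cannot be told apart here.

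The wider chaperone network gave the following between the libraries. In the list of heat shock factor 1 targets and cochaperones all 26 genes were measured, with a median log2 ratio of 0.05. Of these, 0 were at least 2-fold higher, against 2.19% of tested genes, and 3 at least 2-fold lower, against 1.78%. Ubb, a ubiquitin gene, was the lowest at 46.5 against 163 CPM (-1.81), lower in all 20 well pairs. The small heat shock protein gene Cryab, named after its value was seen, was also more than 2-fold lower, at 23.5 against 53.1 CPM. Hspa4l, an HSP110 relative like Hsph1, was the highest at 0.47 (0.34 to 0.61), higher in all 20 pairs, followed by Hsf2 at 0.41 (0.18 to 0.65). Hsp90ab1, the constitutive HSP90, was 0.24 (0.21 to 0.27) and Hsf1 0.14 (-0.03 to 0.31).

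Of the ER list 23 of 24 genes were measured, with a median of -0.20 and 0 at least 2-fold apart, and 8 were higher and 15 lower (11 and 12 with TMM or DESeq2 factors). Herpud1 (-0.56) and Manf (-0.52), both targets of the unfolded protein response, were lowest, and the ER HSP110 relative Hyou1 (0.52) and the sensor gene Ern1 (0.42) highest. Hsp90b1 gave 0.21 (0.16 to 0.27). Of the mitochondrial list 14 of 15 were measured, with a median of -0.18, from Dnajc19 (-0.83) and Clpp (-0.52) to Afg3l2 (0.13) and Spg7 (0.16), and Hspa9 gave -0.15 (-0.22 to -0.08). All 14 genes of the cytosolic chaperonin TRiC and of prefoldin, which hands it nascent proteins, were lower in Sox9cKO (12 of 14 with TMM or DESeq2 factors, where Cct2 and Pfdn1 were higher), with a median of -0.30, from Pfdn6 (-0.80) and Pfdn5 (-0.76) to Pfdn1 (-0.08) and Cct2 (-0.07). Of 17 dissociation response genes 2 were higher and 15 lower, with a median of -0.30, from Zfp36 (-0.88) and Ier2 (-0.84) to Fos (0.08) and Dusp1 (0.35). Against these counts, the median over all tested genes was -0.07, and 54.6% of them lay below -0.03.

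Over the 11 groups given by biliary cluster and library with at least 50 cells, the genes whose log2 CPM was most like that of 4 members were listed among 4596 genes. For Hspa1b they were Fos (Pearson r 0.96), Epas1 (0.94), Hspa1a (0.93), Qk (0.92) and Atf3 (0.92). For Hspa8 they were the class I histocompatibility genes H2-K1 (0.99), H2-D1 (0.96) and H2-Q4 (0.95), with Apoe (0.95) and Brd2 (0.95). For Hspa5 they were Pcsk5 (0.95), Txlng, Znrf3, Hnrnpc and Pabpc4 (0.93 to 0.94), and for Hspd1 Jmjd1c (0.90), Serpina1c (0.86), Nhsl1, Pim1 and Ric1 (0.82 to 0.83). The groups share libraries and depth, so these are descriptions only.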

How the data were processed

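The deposited values are UMI counts, whole numbers for each gene in each cell, as the authors' matrix gives them. The build was GRCm39, per the submitters' processing notes. The aligner, the choice of cells, the treatment of reads matching several genes and the strand are not given in the sources used here.

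From the deposited counts, cells needed 500 genes, 1000 UMIs and a mitochondrial share of 15% or less, which removed 27 Sox9cKO and 115 Sox9con cells. Of 6362 cells, Scrublet called 5 (0.0786%) doublets, and these were removed. So low a share may mean that the caller did not work, which was not checked, and doublets may remain. Clustering in scanpy 1.11.5 used 2000 variable genes without the members, the related lists and Sox9, 30 principal components, 15 neighbours and Leiden resolution 0.5. A cluster took the name of the cell class whose marker list was most fully present, a marker counting from 50 CPM and 3 markers being needed. The 31 cells of an unnamed cluster led by Gnat3, Fyb and Rgs13 and 16 mesenchymal-like cells are not described.

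Counts were summed per library over the cells of the fraction, well, cluster or class and scaled to the total of those cells (CPM). Log2 ratios had 0.5 counts added at the mean library total. Intervals (95%) are exact Poisson for sums, exact conditional binomial for ratios and Clopper-Pearson for shares. UMI intervals cover counting error only, and no p-value is given. Exonic lengths and the 50-base stretches come from GENCODE M21 on GRCm38, matched by identifier for 10 of 10 genes. Alternatives used edgeR 4.0.16 (TMM) and DESeq2 1.42.0 (size factors). The ratio, its interval and the thinning were run on simulated Poisson counts, which only checks the code. Such counts lack the uneven spread over cells of members such as Hspa1a and Hsph1, so the intervals were not tested for that.

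Members and lists were chosen with earlier results of these data known. Named are all 10 members, the 2 top and 2 bottom log2 ratios of each related list (200 UMIs needed), Hsp90ab1, Hsp90b1, Hspa9 and Hsf1, and for 4 members the 5 genes of most similar profile among those with at least 1000 UMIs. Fos, Jun, Egr1 and Atf3 in cells with Hspa1a, and the genes of the cells high in Hspa5, were chosen after their values were seen. One gene that the rule names is not reported here.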

Additional observations from a re-analysis of the deposited data

How the results depend on the processing

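No paired analysis was possible because each genotype has 1 library, and no test was made. Hsph1 and Hspd1 stayed above 0 and Hspa1a, Dnajb1, Hspb1, Hspa8 and Hspe1 below 0 under every alternative run, all of which pooled the clusters. Hsph1 ran between 0.09 (without the stress gene cluster, interval -0.08 to 0.26) and 0.79 and Hspa8 between -0.57 and -0.29. Within single clusters Hspa1a, Dnajb1 and Hsph1 had no common direction. The inducible sum had a log2 ratio of -0.09 as reported, -0.0080 with TMM factors, 0.0058 with DESeq2 size factors, -0.059 with a total free of mitochondrial, ribosomal RNA and member genes, -0.16 as a mean over cells, -0.13 under the stricter cell filter (at least 1000 genes, at least 2000 UMIs, at most 10% mitochondrial), -0.13 over every deposited cell, -0.13 over all kept cells, -0.050 without Hsp90aa1 and -0.27 without the cells of the stress gene cluster. Hspa8 gave -0.30 (TMM), -0.29 (DESeq2), -0.57 (mean over cells), -0.55 (without the stress gene cluster) and, with Hsp90aa1 added, -0.18. Hspa5 gave -0.0030 (TMM) and 0.011 (DESeq2), and the mitochondrial pair 0.30 (DESeq2). TMM and DESeq2 moved the median of all tested genes from -0.07 to 0.02 and 0.03. Leaving out 1 well at a time, the inducible sum ran from -0.19 (without D9) to -0.043 (without D10; -0.05 without B2 and without D11), Hspa8 from -0.45 to -0.34, Hspa5 from -0.13 (without D9) to -0.022 (without D10) and the mitochondrial pair from 0.12 (without D9) to 0.27. Genes at least 2-fold higher numbered 204, and 174 to 234 without 1 well, 102 in thinned cells and 616 from at least 20 UMIs. Those at least 2-fold lower numbered 166, and 113 (without D11) to 389 (without D9), 266 from at least 100 UMIs and 740 from at least 20. The inducible level of the highest biliary cluster over the lowest was 4.01, 7.13 at resolution 1.0 and 8.68 with all variable genes. The alternative without the stress gene cluster was chosen after the data were seen. The causes of the shifts were not tested. Depth limits the rarer members most: in cluster 5 of Sox9cKO Hspa1a had 6 UMIs and Dnajb1 8.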

Other observations

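Named copies of Hspd1 and Hspe1 took almost no UMIs. Of 12 such copies, only Hspd1-ps3 had any in the biliary fraction, 8 in Sox9cKO and 5 in Sox9con. Hspa1l, the third gene of the Hspa1a cluster, had 6 and 7 UMIs, and Hspa2, a further HSP70 known for its role in the testis, 148 and 208. In transcripts annotated for the mouse, 48.8% of the 50-base stretches of Hspb1 and 47.5% of those of Hsp90aa1 occur in another gene, against 0% for Hsph1 and Hspa5.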
